A study of Homo sapiens with 22 samples.

Results

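The genes described here are the 28 protein-coding genes for the proteins of the small (40S) subunit of the cytoplasmic ribosome, chosen by name from 20136 protein-coding genes of GENCODE release 44 on human genome build hg19. For each of 16 lists of ChIP-seq peaks, a gene was counted as bound where the summit of a peak lay within 1 kb of any of its annotated transcription start sites, and its highest peak there was taken. The study asked how the MYC family member N-MYC and the chromatin protein WDR5 share target genes in neuroblastoma. Peak lists from 2 established human neuroblastoma cell lines with MYCN amplification, CHP-134 and IMR-32, were analysed. CHP-134 cells received either DMSO (3 N-MYC and 3 WDR5 lists) or a compound (3 and 3 lists) for 4 h before crosslinking. The labels give the compound under more than 1 code name and the DMSO at more than 1 concentration, so it is called the compound here. IMR-32 cells were untreated and contribute N-MYC replicates 1 and 2 and WDR5 replicates 1 and 3. N-MYC was precipitated with a custom serum and WDR5 with a commercial antibody, and each library pools several precipitations of 1 chromatin sample. The methods state that the experiments were run independently for each replicate, while the labels do not name separate cultures, so p-values measure the spread between these libraries. The 6 IgG samples were not analysed here.

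Small subunit proteins are built into the particle that binds mRNA and reads its codons, and their genes are among the most strongly transcribed in dividing cells. Most start transcription inside a run of C and T bases at the start of the mRNA, the feature that places their translation under growth control. MYC proteins bind DNA together with MAX at the E-box CACGTG and at related words, and genes for ribosome production are long-known targets of the family. WDR5 is a protein of several chromatin complexes that also binds a short conserved box of MYC proteins, and ribosomal protein genes are among the sites where it is found on chromatin in many cell types.

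Lists differed greatly in length, and read depth is unknown because the files hold peaks and no read counts. The N-MYC lists held 15286, 9125 and 12283 peaks under DMSO, 11249, 2964 and 12313 under the compound, and 8286 and 5242 in IMR-32. The WDR5 lists held 4891, 1758 and 1671 peaks under DMSO, 5973, 15 and 401 under the compound, and 1693 and 1258 in IMR-32. Compound replicate 2 stood apart for both antibodies. A peak's height is its fold over background as the peak caller gave it, and because fold scales differ between lists, each height was also expressed as a percentile among all peaks of its own list. A gene without a peak was not called at the authors' q threshold of 0.05, which does not show that the protein was absent.

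N-MYC was listed at 26, 21 and 24 of the 28 genes in the 3 DMSO lists of CHP-134, and WDR5 at 18, 15 and 15. Counting peaks in at least 2 of 3 lists, N-MYC lay at 24 small subunit genes, against 38.7% of all protein-coding genes. WDR5 lay at 16, against 8.53% of all genes. Both proteins lay at 15, against 7.73% of all genes. Large subunit genes gave 46, 34 and 34 of 47 by the same rules, and genes of the mitochondrial small subunit gave 24, 5 and 4 of 31. Proteins of the head of the subunit, the part that holds the incoming mRNA and tRNAs, and those of its body and platform were both represented. N-MYC lay at 11 of 12 head genes and 13 of 16 body genes, and WDR5 at 8 of each. With the canonical start alone, WDR5 lay at 15 members, because the WDR5 peaks counted for RPS29 sat at a remote annotated start.

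The small subunit genes fell into 2 sets by the height of WDR5. At 12 of them WDR5 lay at percentile 90 or above in all 3 DMSO lists, which held for 0.77% of all genes (155 genes), 31 large subunit genes and 0 mitochondrial small subunit genes. The 12 were the head genes RPS3, RPS10, RPS15 and RPS18 and the body genes RPS2, RPS3A, RPS4X, RPS6, RPS7, RPS14, RPS15A and RPS24. Their percentiles ran from 95.02 to 99.97 and their folds from 27.2 to 81.0. The other 16 genes reached at most percentile 77.2 and a fold of 6.07. No small subunit gene lay between these ranges. The 12 are called the WDR5-high genes below, a name given after their values were seen, so the gap between the sets is a description and carries no test. Leaving out any 1 of the 3 WDR5 lists gave the same number, 12.

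**Figure D1:**
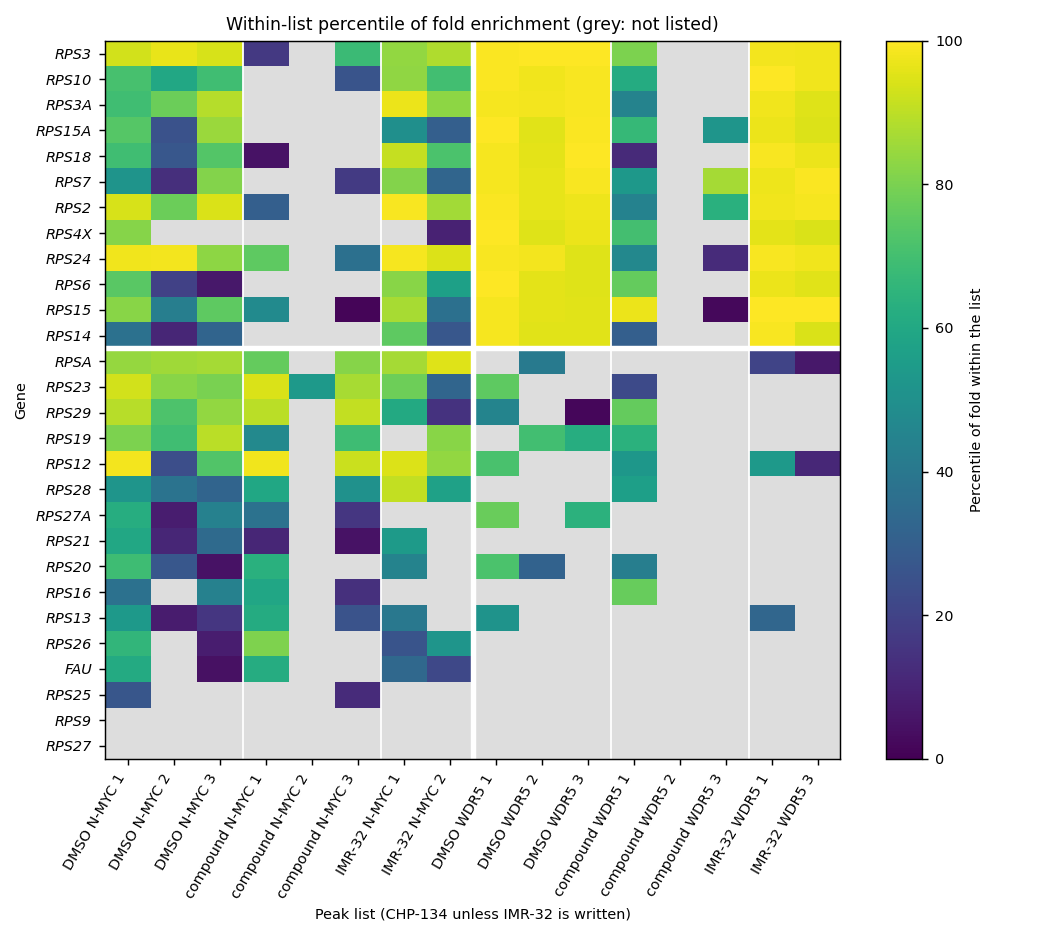
Heat map of the percentile (colour, 0 to 100) of each small subunit gene's highest peak within its list, 1 row a gene and 1 column a peak list, with grey where no peak was listed and a white line below the 12 WDR5-high genes. In the WDR5 lists of DMSO-treated CHP-134 and of IMR-32 these 12 all sit above percentile 94, while the other genes are lower or grey.

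Among head genes of the WDR5-high set, RPS3, whose protein lies at the mRNA entry channel, had the highest mean WDR5 percentile of all members, 99.7 ± 0.141 (SD, n = 3). Its folds were 59.2, 75.1 and 76.2 in DMSO lists 1 to 3. RPS10, mutated in some patients with the inherited anaemia Diamond-Blackfan anaemia, followed with percentiles of 99.2, 98.0 and 99.0 and folds of 49.1, 55.9 and 65.6. The SDs of these folds were 9.52 and 8.28, and both genes lay far above the median fold of 4.36 to 4.93 at genes outside the WDR5-high set. RPS15, whose tail reaches the decoding centre, lay at 98.6, 95.8 and 95.5. RPS18 lay at 98.7, 95.7 and 99.6.

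Body genes of the same set were as high. RPS3A had WDR5 folds of 41.0, 56.9 and 65.0, RPS15A of 65.3, 33.0 and 72.8, and RPS4X of 81.0, 27.2 and 46.6. RPS4X thus carried both the highest and the lowest fold of the set, and its replicates spread over 27.3 units (SD), against 4.03 for RPS15. RPS6, the protein phosphorylated by the S6 kinases when growth signals arrive, had folds of 60.4, 36.1 and 33.8 and a mean percentile of 96.9 ± 2.38. RPS14, whose loss of 1 copy underlies the anaemia of the 5q- syndrome, had the lowest mean of the 12 at percentile 96.5 ± 1.82, with folds of 41.7, 30.7 and 36.5. RPS2 averaged 97.6, RPS7, whose protein binds MDM2, 97.9, and RPS24, another Diamond-Blackfan anaemia gene, 97.4. With SDs of 1.32 to 2.48, the percentiles of RPS2, RPS4X, RPS6, RPS7, RPS14, RPS15, RPS15A, RPS18 and RPS24 could not be ordered beyond the spread between their libraries.

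**Figure D2:**
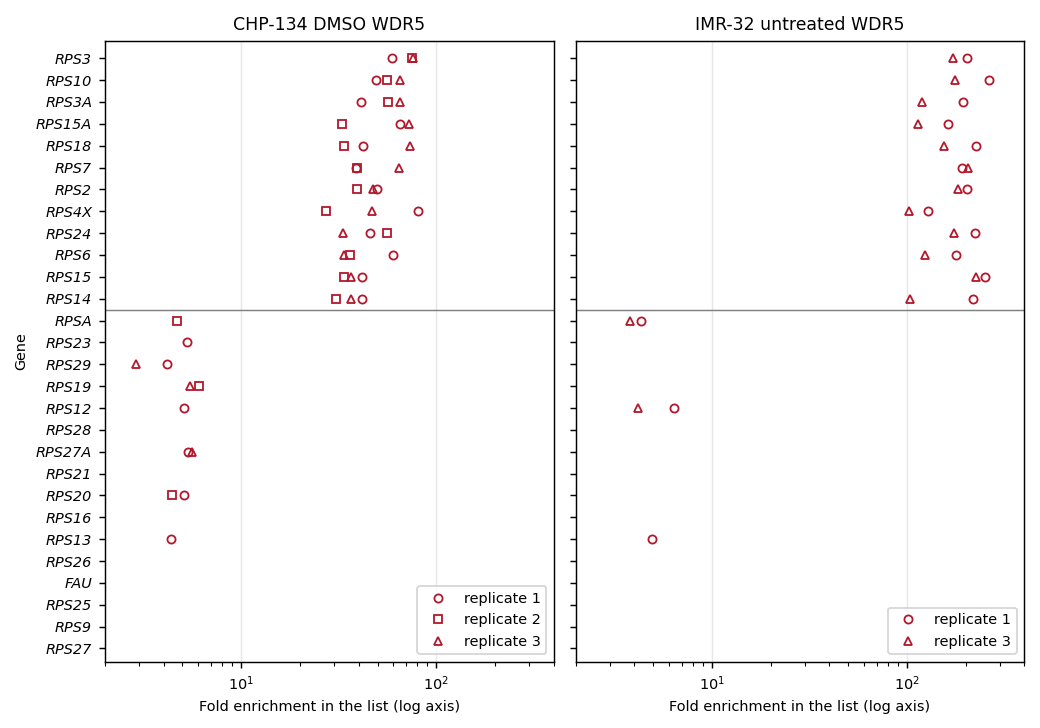
WDR5 fold enrichment (log axis) of each small subunit gene in DMSO-treated CHP-134 (left) and untreated IMR-32 (right), with 1 marker a replicate and none where no peak was listed. Above the grey line, WDR5-high genes lie at 27.2 to 81.0 on the left and 102 to 264 on the right, and the genes under it stay at or below 6.07 and 6.36.

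Of the other 16 genes, 8 had no WDR5 peak in any DMSO list, namely RPS9, RPS16, RPS21, RPS25, RPS26, RPS27, RPS28 and FAU. The remaining 8 were listed in 1 or 2 lists. RPS27A, which encodes its protein fused to ubiquitin, lay at 77.2 and 64.4 in lists 1 and 3. RPS19, the gene most often mutated in Diamond-Blackfan anaemia, lay at 69.9 and 62.1 in lists 2 and 3, and RPS20 at 71.7 and 31.6 in lists 1 and 2. RPS12, RPS13 and RPS23 were listed in list 1 alone, at 71.2, 51.2 and 75.1, and RPSA, also known as a laminin receptor, in list 2 alone at 40.7. List 1 held more peaks than lists 2 and 3 together, and 6 of the 16 genes were in it against 3 in each of the others. RPS29 had WDR5 peaks at 45.3 and 1.89, at -12402 and -12116 bp from its canonical start, in the neighbourhood of another annotated start.

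Genes of both sets were among the highest for N-MYC. The 5 highest mean N-MYC percentiles belonged to RPS3 (94.6 ± 1.95), RPS24 (93.0 ± 8.77), RPS2 (88.5 ± 9.60), RPSA (85.6 ± 1.27) and RPS23 (85.1 ± 7.06), where the latter pair lies outside the WDR5-high set. RPS23, which carries a hydroxylated proline in the decoding centre, lay at 93.2, 82.3 and 79.9. RPSA lay at 84.2, 85.8 and 86.7, the closest replicates of any member. RPS3 lay above RPSA in every list, and its range overlapped those of the other 3.

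The WDR5-high genes had median N-MYC percentiles of 73.9, 42.6 and 81.4 in the 3 DMSO lists and the others, where listed, of 63.9, 32.7 and 43.97. Some WDR5-high genes were low in the N-MYC lists. RPS14 lay at 37.1, 10.7 and 32.2, and RPS6 at 74.3, 19.5 and 6.26. RPS4X had N-MYC in DMSO list 1 alone, at 81.8. Library 2 gave the lowest N-MYC value of RPS7, at 13.4 against 51.7 and 81.4, and RPS12 spread most of the members listed in all 3, from 98.2 in list 1 to 24.1 in list 2 and 73.0 in list 3.

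RPS9, a protein that guards the accuracy of decoding, and RPS27, a zinc-binding protein, had no peak of either antibody in any of the 16 lists. Their nearest N-MYC summits under DMSO lay 10.6, 85.7 and 10.6 kb from RPS9 and 13.6, 13.1 and 13.3 kb from RPS27. RPS25, needed by several viral entry sites for the ribosome, had N-MYC in DMSO list 1 alone, at 26.6. FAU, a ubiquitin-like protein fused to its ribosomal protein, lay at 61.1 and 4.37 in lists 1 and 3, and RPS26, of the mRNA exit channel, at 65.7 and 8.10. With unlisted genes counted at 0, these 5 had the lowest mean N-MYC percentiles. RPS16 was also missing from list 2, with 37.3 and 43.97 in the others.

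The remaining members had N-MYC in all 3 DMSO lists. RPS19 lay at 80.2, 69.3 and 89.5 and RPS29 at 89.4, 72.0 and 83.6, both above the median of listed genes in every list (60.05, 54.8 and 57.3). RPS28 lay at 52.2, 38.2 and 32.1, below it in every list. RPS13, RPS20, RPS21 and RPS27A lay at 54.0 to 68.9 in list 1, at 7.69 to 27.2 in list 2 and at 4.83 to 44.1 in list 3. RPS20 was lowest in list 3, and RPS13, RPS21 and RPS27A in list 2. The WDR5-high genes RPS15A and RPS18 were lower in list 2 (25.1 and 27.0) than in lists 1 and 3 (69.4 to 85.1).

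Peaks of some members also lay within 1 kb of a start of another gene and cannot be assigned to 1 of them. This held for RPS10 with the readthrough gene RPS10-NUDT3, RPS12 with SLC18B1, RPS18 with VPS52, RPS25 with TRAPPC4, RPS27A with CLHC1, RPS28 with NDUFA7, RPS29 with LRR1 and FAU with MRPL49.

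WDR5 and N-MYC percentiles were compared gene by gene at the 659 genes listed in all 6 DMSO libraries, using limma on normal scores (the normal quantile of the percentile) with Benjamini-Hochberg adjustment. Of the members, 11 met this condition, all WDR5-high and lacking only RPS4X. WDR5 was higher than N-MYC at 9 of the 11, against 15.6% of the genes tested, and lower at 0. The set was named for high WDR5 in these same lists, so this direction follows largely from the name and is not separate support for it. The 15.6% is over genes not chosen by WDR5 height, and the adjusted p-values of the members are given as description. The difference was largest for RPS6 (2.61 ± 0.57 SE normal-score units, adjusted p = 0.0078 by limma) and RPS14 (2.54 ± 0.42, limma adjusted p = 0.0032), followed by RPS7, RPS15A, RPS18 and RPS10 at 1.83 to 2.13 (limma adjusted p = 0.0068 to 0.013). RPS15 (1.40), RPS3A (1.37) and RPS3 (1.16) passed with limma adjusted p = 0.028, 0.021 and 0.038, and each lost its call in most of the fits that left out 1 library. RPS2 (0.77, limma adjusted p = 0.18) and RPS24 (0.31, limma adjusted p = 0.62) did not pass, and both were near the top of the N-MYC lists as well. On percentile points instead of scores, RPS10 and RPS14 alone passed among the members. In percentile points the median difference was 32.0 over the 11 members and -6.24 over all genes tested. Because the condition keeps genes with a peak in every list, the members without WDR5 had no part in this comparison.

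Under DMSO and in IMR-32, summits of WDR5 sat within a short stretch of intron 1 in the WDR5-high genes. Averaged over the 3 DMSO lists, the summit lay 150 ± 21.2 bp (SD over 12 genes) downstream of the canonical start, from 105 bp in RPS10 to 188 bp in RPS7, with a median SD of 11.8 bp between the libraries of a gene. All 36 DMSO summits and all 24 IMR-32 summits lay in intron 1. Between 100 and 250 bp downstream were 12 of 12 in each of the 3 DMSO and both IMR-32 lists. The same window held 16.5 to 22.9% of the WDR5 summits of all genes in these 5 lists and 43.4 to 45.5% of those of the 143 other genes that met the same height rule. Those other genes include some counted at starts far from the canonical one, with summits from -215455 to 226879 bp in DMSO list 1. They can also include neighbours counted through a peak shared with another gene. How far this lowers their share was not tested. RPS10 varied least between libraries, at 105, 104 and 105 bp, and RPS15 lay at 141, 144 and 140 bp.

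**Figure D3:**
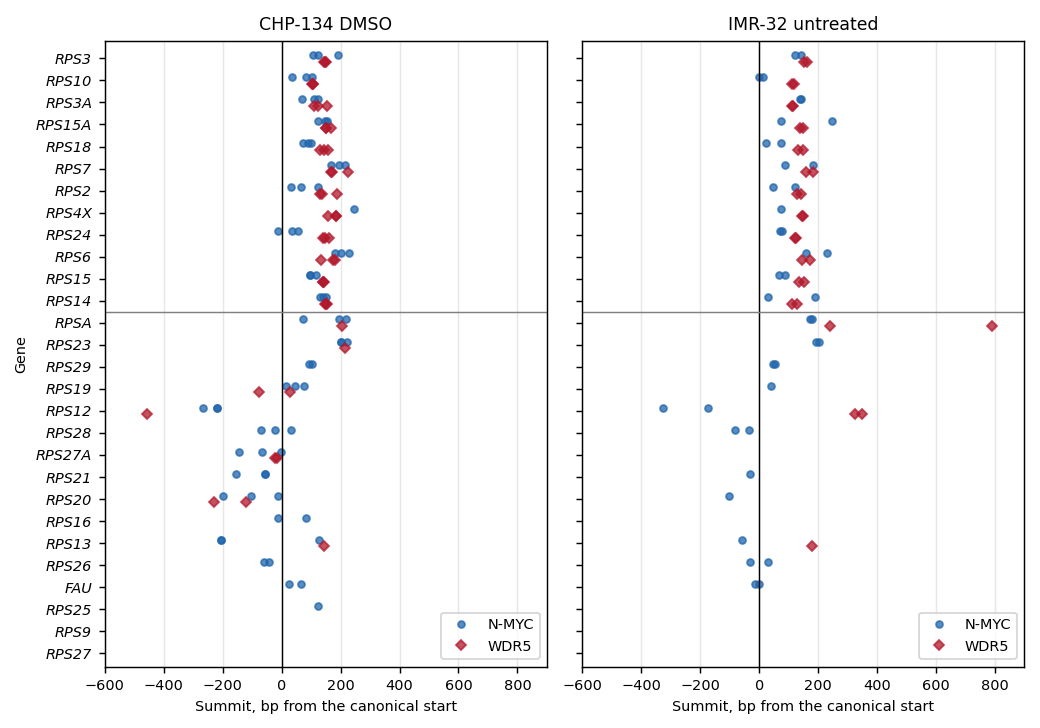
Summit of the highest peak of each small subunit gene, in bp from the canonical transcription start (downstream positive), with 1 marker a library, circles for N-MYC and diamonds for WDR5, in DMSO-treated CHP-134 (left) and IMR-32 (right). WDR5 summits of the WDR5-high genes, above the grey line, all lie 104 to 226 bp downstream on the left and 110 to 183 bp on the right, and 3 remote RPS29 summits lie outside the axis.

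N-MYC summits of the same 12 genes lay at 128 ± 62.6 bp downstream, and 30 of 34 DMSO summits were in intron 1. The N-MYC summit lay within a median of 31.0 bp of the WDR5 summit at the 11 genes with both (3.67 bp in the closest to 122 bp), against 129 bp at all 1556 genes with both proteins and 74.5 bp at 136 other genes with WDR5 as high. In IMR-32 the median distance was 37 bp at 11 genes, against 144 bp at 523 genes and 65.8 bp at the other genes with WDR5 as high. RPS24 was an exception, with N-MYC summits at -11, 57 and 36 bp and WDR5 summits at 160, 139 and 148 bp. At members outside the WDR5-high set, N-MYC summits had medians of 6.50, -83.5 and -11 bp in the 3 DMSO lists against 123, 111 and 96.0 bp in the WDR5-high set. Over all genes the medians were -47.0, -50.5 and -53.0 bp. RPS12 had its N-MYC summit upstream in every list that held it, at -220, -221 and -266 bp under DMSO, and RPS23 in intron 1, at 202, 221 and 201 bp. Measured from the nearest annotated start instead of the canonical one, the median over listed members was 54.6 bp in place of 145 bp for WDR5 and 11 bp in place of 73.7 bp for N-MYC, so that the distance rests on the start used.

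The stretches below show the sequence at the highest summits, without showing which bases were bound. They are the intron 1 bases within 60 bp of the summit, from hg19, for the members with the highest mean WDR5 percentile (RPS3, RPS10, RPS3A) and the highest mean N-MYC percentile (RPS3, RPS24, RPS2). RPS3 is shown once, since its N-MYC stretch overlaps that of WDR5. They are written 5′ to 3′ on the gene's strand, with capitals marking the word GCCATCC or its reverse complement GGATGGC.
RPS3 at WDR5, chr11:75110645-75110765, plus strand: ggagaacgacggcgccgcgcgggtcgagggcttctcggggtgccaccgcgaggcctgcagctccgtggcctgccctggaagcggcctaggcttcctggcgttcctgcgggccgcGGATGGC
RPS10 at WDR5, chr6:34393681-34393801, minus strand: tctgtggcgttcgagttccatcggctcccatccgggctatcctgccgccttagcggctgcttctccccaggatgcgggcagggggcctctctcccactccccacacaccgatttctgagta
RPS3A at WDR5, chr4:152020867-152020963, plus strand: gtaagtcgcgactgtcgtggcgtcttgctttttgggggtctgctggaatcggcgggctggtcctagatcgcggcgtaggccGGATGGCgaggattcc
RPS24 at N-MYC, chr10:79793663-79793738, plus strand: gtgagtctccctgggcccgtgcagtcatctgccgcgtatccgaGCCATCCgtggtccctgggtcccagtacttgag
RPS2 at N-MYC, chr16:2014734-2014807, minus strand: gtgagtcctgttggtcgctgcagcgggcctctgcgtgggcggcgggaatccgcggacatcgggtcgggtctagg
RPS3A, RPS24 and RPS2 begin at the first base of the intron, as their summits lie close to exon 1. The marked word was present in RPS3, RPS3A and RPS24 and in neither RPS10 nor RPS2.

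The word GCCATCC, chosen after these sequences had been read, lay within 100 bp of the WDR5 summit on either strand at 6 of the 12 WDR5-high genes, RPS3, RPS3A, RPS4X, RPS6, RPS15A and RPS24. The stretches of RPS3, RPS3A and RPS24 were among those read, so the count of 6 includes genes from which the word was taken. The word shares the letters GATGG with AAGATGG, searched below. It lay there at 0 of the 8 other members with a WDR5 peak, at 21.0% of the 143 other genes with WDR5 as high and at 3.82% of 4320 genes with lower WDR5. In the 300 bases around the start it was found at 1 of 28 members, RPS26, and at 3.54% of all genes. The E-box CACGTG lay within 100 bp of the N-MYC summit at 4 of 26 members, RPSA, RPS2, RPS23 and RPS28, against 23.1% of 9986 genes with an N-MYC peak. The related word CACGCG was found at 3 members, RPS12, RPS19 and RPS24, against 26.1%. AAGATGG, a core of the YY1 motif, was found at 5 members against 3.97%, and CCGGAAG, a core of ETS motifs, at 2 against 10.7%. From 250 bases before to 50 after the start, CCGGAAG was found at 8 of 28 members, 6 of them WDR5-high, against 14.0% of all genes. A word is a string of letters and was not tested as a site, and its absence says nothing of the factor.

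At the start itself, the longest run of C and T within 50 bases had a median of 12 bases in the members (7 to 16) and 6 in all genes. The run covered the start at 22 of 28 members against 5.70% of all genes. It did so at 8 of 12 WDR5-high genes and at 14 of the 16 others. GC content around the start had medians of 59.5% and 60.3% in the 2 sets and 63.7% in all genes. Small nucleolar RNA genes lay inside 8 of the 28 genes against 2.10% of all genes, and 5 had a divergent protein-coding neighbour against 9.38%.

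In IMR-32, WDR5 divided the small subunit genes in the same way. Of 148 genes (0.735% of all) with WDR5 at percentile 90 or above in both lists, 12 were members, and the 12 were the WDR5-high genes of CHP-134. Their percentiles ran from 94.2 to 99.8 and their folds from 102 to 264, whereas the others reached percentile 54.2 and a fold of 6.36. Of all 155 genes that were WDR5-high in CHP-134, 132 (85.2%) met the rule in IMR-32. WDR5 lay in both IMR-32 lists at 14 members, against 4.86% of all genes, the additions being RPSA (20.5 and 6.60) and RPS12 (54.2 and 11.3). RPS10 (99.8 and 98.0) and RPS15 (99.6 and 99.7) were highest. N-MYC lay in both IMR-32 lists at 18 members, against 15.9% of all genes. RPS24 (98.7 and 94.6), RPS2 (99.0 and 86.3), RPSA (86.4 and 95.2) and RPS3A (96.9 and 83.0) had the highest N-MYC. RPS9, RPS16, RPS25, RPS27 and RPS27A had N-MYC in neither list.

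No member differed between the lines by limma with Benjamini-Hochberg adjustment. For N-MYC, 16 members were among 2754 genes listed in all 5 libraries, 0.0% of which passed, with 380 genes at unadjusted p under 0.05. RPS29 was the member furthest apart, at a mean percentile of 81.7 in CHP-134 and 37.7 in IMR-32 (-1.33 ± 0.52 SE normal-score units, limma adjusted p = 0.32). In CHP-134 list 3, its counted N-MYC peak lay at the remote start, and its percentile at the canonical start was 69.2 in place of 83.6. For WDR5, 12 members were among 523 genes, 0.0% of which passed, with 60 genes at unadjusted p under 0.05. RPS15 was furthest apart, at 96.6 in CHP-134 and 99.7 in IMR-32 (0.85 ± 0.37 SE, limma adjusted p = 0.41). When genes were ranked again among those shared by all lists, RPS15 was higher in IMR-32 (1.35, limma adjusted p = 0.0478). The line, the DMSO and the sequencing method (75 bp single reads in CHP-134 and 150 bp paired reads in IMR-32) cannot be told apart. The difference between WDR5 and N-MYC was tested between the lines at 310 genes, 11 of them members, and limma called 0, with 25 genes and 0 members at unadjusted p under 0.05.

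Under the compound, WDR5 peaks at the WDR5-high genes were lower. List 1 held all 12, at percentiles of 11.9 to 97.1 (median 57.4) and folds of 3.15 to 6.39 (median 4.28). In DMSO list 1 their folds had been 38.6 to 81.0 (median 47.4). Genes outside the set had median folds of 4.36 and 4.09 in the same lists, so the 12 genes stood far above them under DMSO and beside them under the compound. RPS3 went from a fold of 59.2 to 4.95, RPS4X from 81.0 to 4.64 and RPS6 from 60.4 to 4.88. The set was named on the DMSO values, so these differences carry no test. In the IMR-32 lists, which had no part in the name, all 12 genes were high. Those lists are of untreated cells of another line and give no check on the difference under the compound. The highest percentile of the 12 in compound list 1 was 97.1, at RPS15, with a fold of 6.39 against 41.6 in DMSO list 1. List 3 held 5 of the 12, RPS2, RPS7, RPS15, RPS15A and RPS24, at percentiles of 2.12 to 86.7, and list 2, with 15 peaks in all, held 0 members.

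WDR5 thus lay in at least 2 of 3 compound lists at 5 members, against 1.34% of all genes. All 3 compound percentiles lay below all 3 DMSO percentiles, with an unlisted gene counted at 0, at 11 members, against 2.58% of all genes. The same held at 132 of all 155 genes with WDR5 as high and at 32 of 47 large subunit genes. Only a gene with WDR5 in all 3 DMSO lists can meet this rule, and among members these were the WDR5-high genes alone. Most of all genes could not meet it, so the 2.58% is not a share of genes that could. The 11 were the WDR5-high genes other than RPS15, whose value of 97.1 in compound list 1 lay among its DMSO values of 98.6, 95.8 and 95.5. With 3 libraries against 3, an exact permutation test of 1 gene cannot go below a two-sided p of 0.1. The fit across genes was not run, since 17 genes and 0 members had WDR5 in all 6 libraries, and 148 genes with 5 members without compound replicate 2, fewer than the 500 genes set as its minimum. Outside the set, 7 members had WDR5 in compound list 1 at folds of 3.46 to 4.92, and 6 in DMSO list 1 at 4.19 to 5.36. RPS16 and RPS28, without WDR5 under DMSO, were among the 7, at percentiles 76.8 and 56.3.

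N-MYC was listed at 18, 1 and 16 members under the compound against 26, 21 and 24 under DMSO, and in at least 2 of 3 compound lists at 13 members, against 30.7% of all genes. Over all genes, the share listed was 35.6%, 11.3% and 38.2% under the compound and 45.5%, 31.3% and 38.8% under DMSO. All 3 compound percentiles lay below all 3 DMSO percentiles at 12 members, against 2.93% of all genes, 75 of all 155 genes with WDR5 as high and 25 of 47 large subunit genes. The opposite held at 0 members and 0.00497% of all genes. Most of all genes could meet neither rule. Lower values need N-MYC in all 3 DMSO lists, as at 5493 of all genes, 11 WDR5-high members and 10 other members. Higher values need it in all 3 compound lists, and list 2 held 1 member, so these counts together do not show a direction. With the short compound list 2 left out, the rule for lower values gave 12 members against 3.13% of all genes. Of the 12, 9 were WDR5-high (RPS2, RPS3, RPS3A, RPS6, RPS10, RPS14, RPS15A, RPS18 and RPS24), and the others were RPSA, RPS19 and RPS21. RPSA lay just below its DMSO values, at 76.3 and 82.0 in compound lists 1 and 3, while RPS21 lay at 10.57 and 4.78 against 60.1, 10.60 and 34.7.

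**Figure D4:**
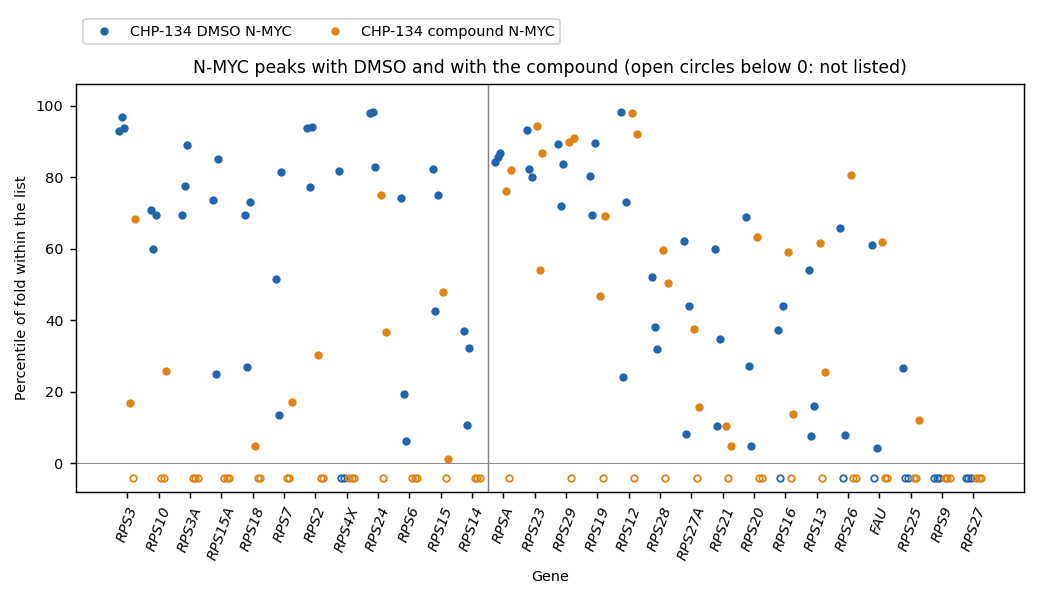
N-MYC percentile of each small subunit gene under DMSO (blue) and the compound (orange), 1 point a library, with open circles below 0 where no peak was listed and the WDR5-high genes left of the grey line. In compound lists 1 and 3, WDR5-high genes have no peak in 14 of 24 values and the other members in 8 of 32, and in list 2 RPS23 alone has one.

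WDR5-high genes were listed for N-MYC 12, 11 and 11 times under DMSO and 5, 0 and 5 times under the compound. Members outside the set were listed 14, 10 and 13 times under DMSO and 13, 1 and 11 times under the compound. The 31 large subunit genes with WDR5 as high were listed 31, 30 and 31 times under DMSO and 15, 3 and 17 times under the compound. In compound lists 1 and 3 that was 48.4 and 54.8% of them, against 41.7% of the WDR5-high members in each. RPS3A went from 69.4, 77.5 and 89.0 to no peak in any compound list. RPS6, RPS14, RPS15A and RPS4X also had no N-MYC peak in any of them. RPS3 went from 93.0, 96.8 and 93.9 to 16.8, none and 68.3, and RPS2 from 93.9, 77.4 and 94.1 to 30.2 in list 1 alone. RPS24 lay at 75.1 and 36.8 in compound lists 1 and 3, below its 97.9, 98.3 and 82.9 under DMSO.

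Outside the set, members high for N-MYC did not all move alike. RPS19 lay at 46.9 and 69.1 in compound lists 1 and 3, below its 80.2, 69.3 and 89.5 under DMSO. RPSA was also lower, as given above. RPS12 lay at 97.8 and 92.1 in compound lists 1 and 3, between its DMSO extremes of 98.2 and 24.1. RPS29 lay at 89.8 and 91.0, above its 89.4, 72.0 and 83.6 under DMSO. None of RPS19, RPSA, RPS12 and RPS29 had a peak in compound list 2. RPS23 was the 1 member with N-MYC in all 6 libraries, at 94.4, 54.0 and 86.7 against 93.2, 82.3 and 79.9. Its difference was -0.15 ± 0.50 SE normal-score units (limma adjusted p = 0.93). Limma passed 0.0% of the 2156 genes tested, with 24 at unadjusted p under 0.05. That count was 175 with the replicate number as a block, and 76 and 164 without compound replicates 1 and 3, with 0 genes called in each. Without compound replicate 2 it tested 12 members among 4793 genes and called 0, with 73 genes at unadjusted p under 0.05, RPS3 among them (94.6 to 42.5, unadjusted p = 0.0067 by limma). This test drops every gene whose peak was lost in a library.

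Loss of the N-MYC peak was therefore counted among genes with N-MYC in all 3 DMSO lists, asking how many had it in both of the longer compound lists, 1 and 3. This count was chosen after the values were seen and carries no test. It was 3 of 11 WDR5-high members (27.3%), namely RPS3, RPS15 and RPS24, and 9 of 10 other members, all but RPS20. Among genes that are not members it was 76 of 123 with WDR5 as high (61.8%), and over all genes without high WDR5, members included, 4714 of 5359 (88.0%). At a mean DMSO N-MYC percentile of 50 to 75, it was 1 of 4 WDR5-high members (RPS15, and not RPS10, RPS15A or RPS18), 56.5% of the non-member genes with WDR5 as high and 91.6% of genes without. At percentiles of 75 to 90, it was neither of RPS2 and RPS3A but all 4 of RPS19, RPS23, RPS29 and RPSA, with 66.7% and 98.4% in the other classes. Above 90, RPS3 and RPS24 both kept a peak, with 87.0% and 99.9% in the other classes. Below 50, the shares were 33.3% and 71.8%, with 0 of 3 WDR5-high members and 4 of 5 other members. The non-members with WDR5 as high include large subunit genes, for which this count was not made separately. The lower share of the WDR5-high members is therefore not shown to be particular to the small subunit.

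**Figure D5:**
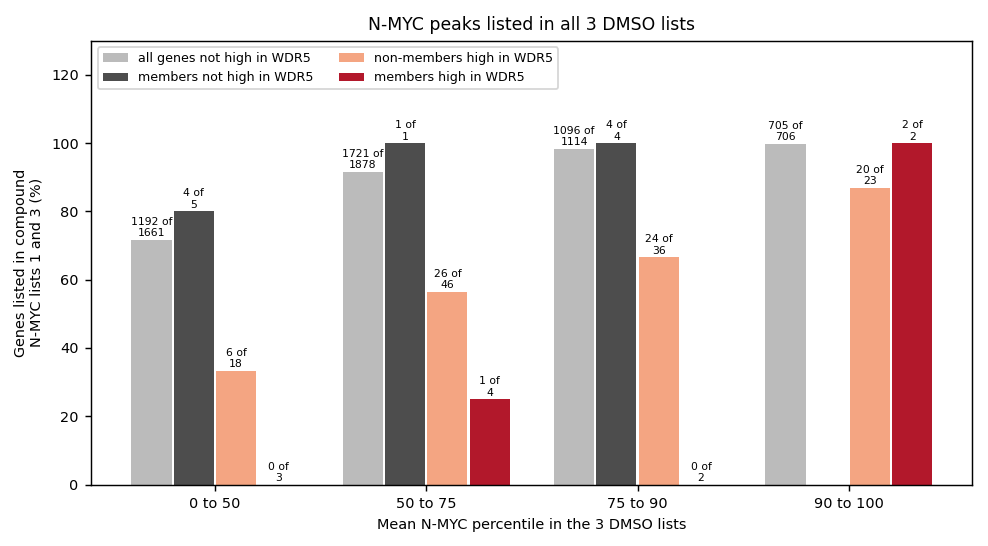
Percent of genes with N-MYC in all 3 DMSO lists that were also listed in compound lists 1 and 3 (bars, with counts above), by mean DMSO N-MYC percentile and by class of gene. Non-members high in WDR5 lie below genes not high in WDR5 in all 4 ranges, at 33.3, 56.5, 66.7 and 87.0% against 71.8, 91.6, 98.4 and 99.9%.

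The N-MYC summits listed at WDR5-high genes under the compound lay on both sides of the start. Of 10 such summits, 4 were in intron 1, 5 upstream and 1 in exon 1, and their medians were -67.0 and 88.0 bp in lists 1 and 3. For RPS15, summits lay at 116, 96 and 96 bp under DMSO and at -98 and -52 bp under the compound, and for RPS24 at -67 and -14 bp under the compound. With 5 genes in each list, these positions are given as values without a test. RPS23 lay in intron 1 as under DMSO, at 207, 204 and 181 bp.

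RPS6 and RPS12 are the members that the study also followed by ChIP-QPCR, and the peak lists can be read at the amplified stretches. The RPS6 amplicon covers chr9:19380071-19380173 (103 bp), from 61 to 163 bp downstream of the start. Peaks overlapped it in all 3 N-MYC and all 3 WDR5 lists under DMSO, in all 4 IMR-32 lists and in WDR5 compound list 1, but in no N-MYC compound list. The WDR5 summits of RPS6 lay 133 to 182 bp downstream under DMSO and its N-MYC summits 182 to 229 bp. The RPS12 amplicon covers chr6:133136159-133136287 (129 bp), from 451 to 579 bp downstream, whereas the highest N-MYC summits of RPS12 lay upstream. It was overlapped by peaks in N-MYC lists 1 and 3 under DMSO, with a second, lower peak at 505 bp in list 3, in N-MYC list 1 under the compound and in WDR5 list 1 of IMR-32. In IMR-32, WDR5 summits of RPS12 lay in intron 2, at 350 and 325 bp. In CHP-134 DMSO list 1, the only DMSO list with WDR5 there, the higher of 2 peaks lay upstream, at -457 bp. The position of the lower peak is not given here. In compound list 1 the summit lay at -566 bp.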

How the data were processed

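The authors removed adapters with Cutadapt, aligned reads to hg19 with Bowtie2 and called peaks in each library with MACS2 at a q-value of 0.05; versions and the control library are not given in the sources used here. The deposited narrowPeak files give each peak's fold over background (a ratio), its −log10 p-value and −log10 q-value, and a score, and hold no read counts. Summits were assigned to genes within 1 kb of any GENCODE release 44 start mapped to hg19, and folds were ranked within each list. Percentiles were compared as normal scores with limma 3.58.1 in R 4.3.3, without a replicate term, at genes listed in all libraries compared, with Benjamini-Hochberg adjustment at 0.05. Everything else used Python 3.11.15, pandas 2.3.3, numpy 2.4.6 and pysam 0.24.0. The fits were tested on simulated data. Members, lists and rules were chosen with earlier results of these data known. All 28 members are accounted for. In full stand the 5 highest and 5 lowest by mean WDR5 and by mean N-MYC percentile, members without a peak, members called by limma, and RPS6 and RPS12. Libraries of the same number deviated together within CHP-134 (r = 0.42, 0.38 and 0.38 between antibodies, and 0.65, 0.61 and 0.65 between treatments), so that the numbers pair them; between the lines they did not (r = 0.027 and 0.0054). Alternatives were the start used, the distance, a stricter q, re-ranking among shared genes, percentile points, a replicate block and each library left out. Each library's depth is unknown, so no interval for counting error can be given.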

Additional observations from a re-analysis of the deposited data

How the results depend on the processing

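The number of WDR5-high members was 12 in each setting tried, percentiles of at least 80 or 95 included. The number of members with N-MYC in DMSO lists was 21 to 24 with any 1 list left out, and WDR5 was at 13 to 14. Both remaining lists then had to hold a peak, a stricter rule than 2 of 3, so these counts could stay or fall but not rise. Members whose compound percentiles lay below DMSO numbered 12 to 15 for N-MYC and 11 to 12 for WDR5 with any 1 library left out. WDR5 at 5 members under the compound became 3 with a stricter q (−log10 q of at least 5) and 0 where all lists were required. That count was 0 to 5 with 1 list left out and both others required. WDR5 above N-MYC at 9 members became 2 on percentile points and 6 to 8 with 1 library left out. Over all genes, 248 calls in either direction became 91 on percentile points, 157 with a stricter q and 154 to 253 with 1 library left out. RPS24 reversed to -0.0637 without DMSO N-MYC replicate 3 (-0.06 to 0.52 over the libraries left out). With a replicate block the calls rose to 345 genes, and the block changed no call of a member. Between the lines, the 0 N-MYC calls over all genes became 2 with a stricter q and 44 with a replicate block, and stayed 0 with any 1 library left out. The numbers do not pair these libraries. For WDR5, re-ranking gave 10 calls, 1 of them a member (RPS15), and leaving out 1 library gave 0 to 12. The median over members of the mean summit position was 11 bp (N-MYC) and 54.6 bp (WDR5) from the nearest start, and 54.5 to 94.5 bp and 142 to 147 bp from the canonical start with 1 list left out. Within 250 bp of N-MYC summits, CACGCG was found at 5 of 26 members (38.8% of 9986 genes) and CCGGAAG at 7 (21.5%). The cause of these changes was not tested. The height rule for WDR5, the counts of lower compound percentiles, the fits without compound replicate 2 in both arms and the count of retained N-MYC peaks were chosen after seeing the data. No limma test was run for WDR5 under the compound, where 17 genes were listed in all 6 libraries and a minimum of 500 had been set. Unknown depth limits every statement on an unlisted gene.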
